A study of Mus musculus with 36 samples.

Results

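GABAergic neurons of the superficial superior colliculus (sSC) were compared with those of the deep superior colliculus (dSC) in the mouse, 1 sequenced neuron per library. The full tissue names are read from the label abbreviations. The members were chosen by measured values. For each cell, D was the mean log2(value + 1) of Gad1 and Gad2 minus log2(value + 1) of Slc17a6, and sSC and dSC cells with D above 1 were kept. This selected 19 of the 34 sSC and dSC cells, out of 36 cells in the whole series: 14 of 22 sSC cells and 5 of 12 dSC cells. All cells were labelled neurons from MADM clones, in which the descendants of 1 radial glia progenitor carry a colour made by recombination between chromosomes, and a letter names the clone. Labelling was on embryonic day 12, in mice of genotype M11GTTG-Fz10-CreER or M11GTTG-Sox2-CreER, kept on a mixed C57/Bl6, FVB and CD1 background. There was no treatment group, and the labels give no age at collection for single cells. CreER recombines only where its driver is active at the time of induction, so each driver samples the progenitors that use it.

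The 14 sSC cells came from 11 clones (B, C, F, I, M, N, Q and R with 1 cell each, K, S and T with 2 each). The 5 dSC cells came from 4 clones (A, B and U with 1 cell each and O with 2). Only clone B had a member in both tissues. Clones F, M, N and Q in sSC and clone O in dSC carried Sox2-CreER, and the others Fz10-CreER. Cells of 1 clone and tissue were averaged, so the replicate is the clone (n = 11 in sSC, n = 4 in dSC). The labels name no animals, and clones may share one. The p-values therefore measure the spread between these clones only.

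GABAergic neurons release GABA, the main inhibitory transmitter of the brain. Gad1 and Gad2 encode the enzymes that make it from glutamate, and Slc32a1 loads it into vesicles. The superficial layers of the superior colliculus receive input from the retina, whereas the deep layers combine several senses and drive orienting movements, and inhibitory cells occur in both. In the embryonic midbrain, Gata2, Gata3, Tal1 and Sox14 belong to the programme that gives neurons a GABAergic fate.

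Values were the deposited normalised signal, in which each cell sums to 2000000. Read depth is unknown. A gene is called detected in a cell at a value of 1 or more, and class cells had between 2661 and 16769 detected genes. Clone means averaged 11132 ± 3778 genes (SD, n = 11) for sSC against 12706 ± 1883 (SD, n = 4) for dSC, which differ by -1575 (two-sided exact permutation p = 0.462). The library with 2661 genes, the sSC cell of clone B, stood apart. Without clone B in sSC the difference was -728 (exact permutation p = 0.629). All 19 cells expressed Snap25, a synaptic vesicle fusion protein, at 299.8 or more. Mitochondrial genes took 4.04% to 18.5% of the signal in sSC members and 4.70% to 12.1% in dSC members. Marker RNA of other cell types was also found in the class cells, and its values are given with the results below.

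The values that chose the cells are given as a description only. Gad1 ran from 147.4 to 1145 in the sSC members (median 366.2) and was 641.8, 257.5, 175.4, 435.6 and 322.5 in the dSC cells of clones A, B, O (2 cells) and U. Gad2 ran from 1.114 to 822.1 in sSC (median 343.3) and from 109.1 to 605.3 in dSC. The low Gad2 value belonged to the clone B library with few genes. Slc17a6, a vesicular glutamate transporter, was listed at 0 in 3 of 5 dSC members, with 53.76 and 19.18 in the cells of clone O. It was detected in 11 of 14 sSC members, up to 164.2. Just inside the threshold lay an sSC cell of clone K (D = 1.28), a dSC cell of clone O (1.35) and the sSC cell of clone R (1.73). Just outside were a dSC cell of clone C (-0.17) and sSC cells of clones H (-0.85) and M (-0.93). No cell lay between 0 and 1, so a threshold of 0 gives the same members.

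**Figure D1:**
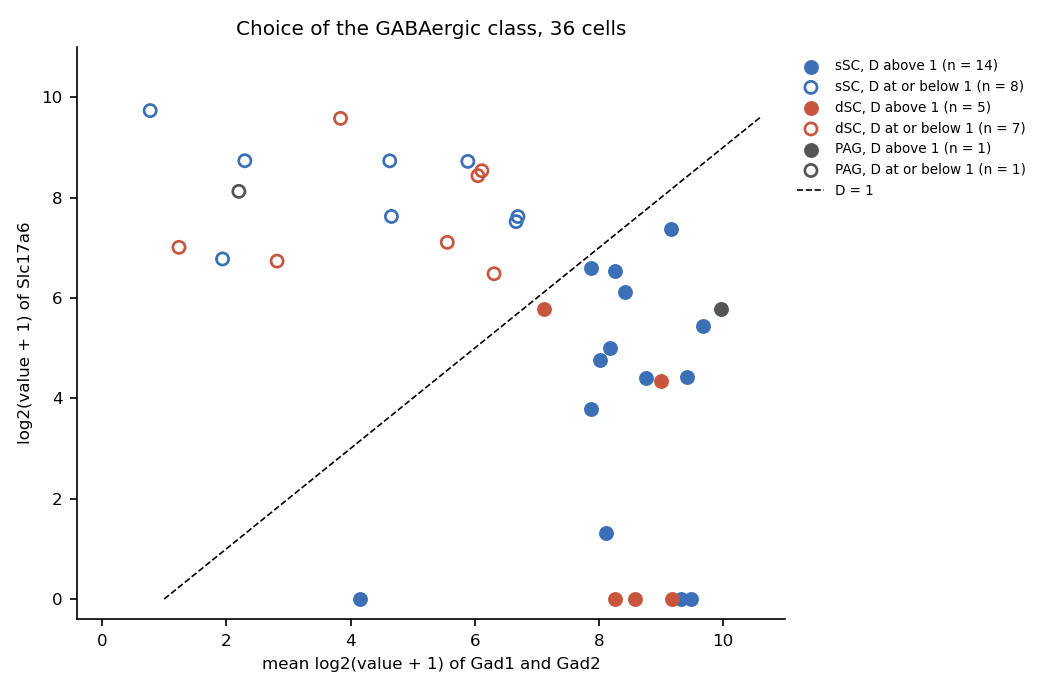
Slc17a6 (y axis, log2(value + 1)) against the mean of Gad1 and Gad2 (x axis, mean log2(value + 1)) in the 36 cells, with the dashed line at D = 1. Filled points have D above 1, and no sSC or dSC cell lies between the included sSC cell of clone K at 1.28 and the excluded dSC cell of clone C at -0.17.

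Slc32a1, which the rule did not use, had overlapping levels in the tissues. It was detected in 18 of 19 class cells. Its values were 47.97, 7.538, 28.49, 31.36 and 7.361 in the dSC cells of clones A, B, O (2 cells) and U, and ran from 0.7305 to 49.54 in sSC with a median of 24.07. The sSC minus dSC difference was 0.19 (SE 1.01, limma adjusted p = 0.999), and the dSC range lay inside the sSC range. Outside the class, Slc32a1 was detected in 3 of 8 sSC and 2 of 7 dSC cells. The rule also left out the vesicular glutamate transporters Slc17a7 and Slc17a8. Slc17a7 was detected in all 19 class cells, from 1.248 to 75.36 with a median of 18.19, and Slc17a8 in 2 of 19. Of 5 tested genes of GABA synthesis, loading, reuptake and breakdown, 1 had a higher and 4 a lower mean in sSC, and none passed. Their median difference was -0.54, beside -0.38 over all 15113 genes tested.

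Factors of the midbrain GABAergic lineage differed in how many class cells carried them. Of those named above, Tal1 was detected in 14 of 19 class cells and Gata2 in 8, while Gata3 and Sox14 were found in more. Gata3 was detected in 17 of 19 cells. It was 64.76, 38.55, 0, 116.4 and 51.76 in the dSC cells of clones A, B, O (2 cells) and U, and the 2 cells of clone O thus held the lowest and the highest dSC value. In sSC it ran from 0 in the clone B library to 258.2, with a median of 50.03 (difference 0.27, SE 1.15, adjusted p = 0.999). Sox14 was detected in 15 of 19 class cells and in 1 of 8 and 1 of 7 of the other sSC and dSC cells. It reached 398.7 in sSC (median 27.02) and 129 in dSC (median 92.82), a difference of -1.06 (SE 1.42). Otx2, a factor of midbrain identity, was detected in 16 of 19 class cells, but En1 in 5 and En2 in 4. Factors of forebrain inhibitory neurons were sparse: Lhx6 was detected in 2 of 19, Dlx2 in 2 and Dlx5 in 5, all of these 5 in sSC.

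Tfap2b, an AP-2 transcription factor, had the smallest p of the lineage factors examined here and did not pass. It was present in all 5 dSC cells, at 15.96, 167.2, 19.37, 155.6 and 130.9 (clones A, B, O, O and U). In sSC it was detected in 6 of 14 cells, up to 272.2 (difference -3.84, SE 1.44, limma adjusted p = 0.999). The sSC cells of clones S and T, all 4 with values between 58.99 and 272.2, overlapped the dSC range, while the cells of clones B, C, I, N and R were listed at 0. Among the other cells, 6 of 8 in sSC and 6 of 7 in dSC had detected Tfap2b. Of the 9 tested lineage factors, 5 had a positive and 4 a negative difference, with a median of 0.0022. Helt, a factor needed for GABAergic fate in the embryo, was listed at 0 in all 19 cells.

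Across all genes, 4 of 15113 passed the test, all lower in sSC, which is 0.0265% of the genes tested. The 4 were A130006I12Rik, Trim43c, Gm24119 and AV356131. None was higher in sSC (0%). The calls of Trim43c, Gm24119 and AV356131 depended on the filter. Each was at 1 or more in 5 class cells, the number needed, of which 5, 4 and 4 were dSC cells. Without a filter only A130006I12Rik passed, and under a filter of 50% of the cells none of the 4 was tested. The adjusted p-values of Trim43c, Gm24119 and AV356131 below therefore hold for the chosen filter only and do not establish a tissue difference. At an unadjusted p under 0.05, 447 genes had a lower (2.96%) and 67 a higher (0.443%) mean in sSC. Together they were 514 of 15113, a share below the 0.05 expected if no gene differed. The split between lower and higher genes changed with the setting. It was 349 to 273 after quantile normalization and 309 to 294 with the number of detected genes in the model. Without the clone B library it was 340 to 204. It was 887 to 44 within Fz10-CreER cells and 842 to 40 with D above 2. The cause of the split was not tested. None of the 4 is an established marker of a neuron class, and 3 are noncoding gene models, so they are described with their gene structure.

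Gm24119 is annotated as a small nucleolar RNA on chromosome 10, overlapping Slc25a3 on the same strand. Its whole transcript model of 246 bases is shown because the gene is this short stretch. None of its stretches of 31 bases occurs in the annotated transcripts of another gene. The sequence is from GENCODE M21, with no part marked.
Gm24119: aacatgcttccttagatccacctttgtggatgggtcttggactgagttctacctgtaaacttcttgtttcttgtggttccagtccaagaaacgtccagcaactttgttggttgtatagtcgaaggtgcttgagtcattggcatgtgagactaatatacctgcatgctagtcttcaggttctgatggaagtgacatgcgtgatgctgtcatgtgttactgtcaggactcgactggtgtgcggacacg

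Gm24119 was 53.02, 70.12, 0, 40.92 and 76.09 in the dSC cells of clones A, B, O (2 cells) and U. In sSC it was listed at 0 in 13 of 14 cells and at 18.23 in 1 cell of clone T. Clone means did not overlap, at 5.22 ± 1.70 (SD, n = 4) in dSC and 0.19 ± 0.64 (SD, n = 11) in sSC on the log2(value + 1) scale (difference -5.02, SE 0.84, limma adjusted p = 0.011). Slc25a3, the mitochondrial phosphate carrier, differed by -1.02 (SE 0.77) and was at 63.68 or more in all 19 class cells. Intron reads of Slc25a3 over the snoRNA cannot be told apart from the snoRNA in a table of exon plus intron values. In the other cells Gm24119 was detected in 1 of 8 in sSC and 1 of 7 in dSC.

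Trim43c, a member of the Trim43 family of RING-finger proteins, was found in all 5 dSC class cells and in no sSC class cell. Its values were 123.7, 14.93, 2.86, 3.376 and 66.48 in the dSC cells of clones A, B, O (2 cells) and U, against 0 in all 14 sSC cells. The mean of 4.77 ± 2.20 (SD, n = 4) in dSC therefore equals the size of the difference (-4.77, SE 0.78, limma adjusted p = 0.011), and no fold is given against a group listed at 0. The limma fit pools the spread of both tissues, and the sSC clones, all at 0, had an SD of 0. The SE and p-value thus understate the spread of the 4 dSC clones. Among the other cells Trim43c was detected in 1 of 8 in sSC (8.987) and 2 of 7 in dSC (27.66 and 15.18). Close copies limit what this value can say. Of all 31-base stretches in the Trim43c transcripts, counted on either strand, 71.8% also occur in transcripts of other genes, 53 in number. Trim43b holds 50.2% of the stretches and Trim43a 45%. Both copies were listed at 0 in every dSC class cell, but Trim43a was detected in 3 sSC cells and Trim43b in 2. Summed over the 3 copies, which were put together after these values were seen, the family was detected in 5 of 5 dSC and 4 of 14 sSC cells. The sSC sums were 65.98 in a cell of clone K, 267.7 in N, 14.76 in R and 108.4 in a cell of clone S, and they overlapped the dSC range of 2.86 to 123.7. Trim43c also overlaps the noncoding 9330159M07Rik on the opposite strand (difference -2.64, SE 1.18, adjusted p = 0.999), and without strand their reads cannot be told apart.

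A130006I12Rik, annotated as a pseudogene on chromosome 2, had the largest values of the 4. They were 31.97, 5252, 21650, 2969 and 2543 in the dSC cells of clones A, B, O (2 cells) and U. Of the 14 sSC cells, 12 were listed at 0, while 1 cell each of clones S and T had 4028 and 3933, within the dSC range. Clone means were 10.42 ± 3.65 (SD, n = 4) for dSC against 1.09 ± 2.42 (SD, n = 11) for sSC on the log2(value + 1) scale (difference -9.33, SE 1.43, limma adjusted p = 0.00853). It overlaps Pdss1, which makes the side chain of coenzyme Q, on the opposite strand. Of its 31-base stretches, counted on either strand, 38.6% occur in Pdss1 transcripts. Pdss1 itself was detected in all 5 dSC and in 10 of 14 sSC cells (difference -2.11, SE 1.28, adjusted p = 0.999). The A130006I12Rik transcript has 408 bases, and in length-scaled values a read counts for more in a short transcript. Among the other cells it was detected in 3 of 8 in sSC and 3 of 7 in dSC, with up to 9821.

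AV356131, a noncoding RNA from a bidirectional promoter on chromosome 7, was 17.39, 81.78, 208.7, 0 and 199.7 in the dSC cells. In sSC it was listed at 0 in 13 of 14 class cells and at 138.9 in 1 cell of clone T. The difference was -5.20 (SE 0.94, limma adjusted p = 0.0276). The other cells showed the opposite order, with AV356131 detected in 4 of 8 sSC and 1 of 7 dSC cells. The sSC minus dSC difference of the class differed from that of the other cells by -7.80 (SE 1.62), which had the smallest p of the interaction and did not pass (limma adjusted p = 0.334).

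All 4 genes entered the test largely through the dSC cells: 5 cells at 1 or more were needed, and the dSC cells gave 5 of 5 for Trim43c, 5 of 7 for A130006I12Rik and 4 of 5 for Gm24119 and AV356131. For each of the 4 the clone SD was larger in dSC than in sSC, which the pooled spread of the fit does not take into account. Under a filter of 50% of the cells none of the 4 was tested and 0 of 10998 genes passed. Leaving out dSC clone B or U left 0 calls. Leaving out dSC clone A left A130006I12Rik, and leaving out dSC clone O left 1 gene that is not among the 4, Bcl2a1b (-5.79, adjusted p = 0.045). Without any 1 of the dSC clones, Trim43c, Gm24119 and AV356131 fell below the filter. Without sSC clone T, A130006I12Rik and Trim43c passed. Without any other sSC clone, the clone B library included, AV356131 lost its call and the other 3 kept theirs. Within Fz10-CreER cells, 7 clones against 3, 0 of 13993 genes passed, with 931 at an unadjusted p under 0.05 in limma. Sox2-CreER cells gave no value of their own, because only clone O has class cells in dSC.

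**Figure D2:**
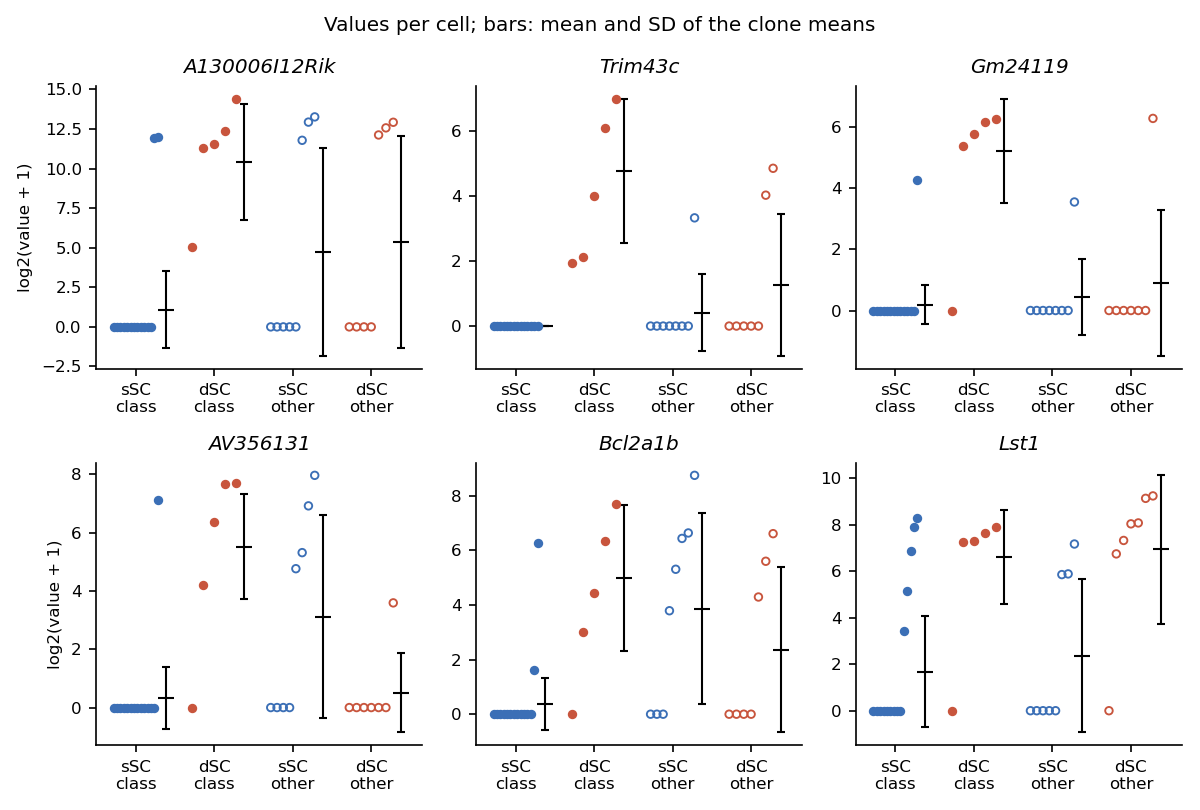
Values per cell (y axis, log2(value + 1)) of the 4 genes that passed and of Bcl2a1b and Lst1, which did not. Filled points are class cells, open points the other sSC and dSC cells, and bars give the mean and SD of the clone means. Of the 14 sSC class cells, 12 lie at 0 for A130006I12Rik and all 14 for Trim43c.

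Bcl2a1b and CAAA01066123.1 came next and did not pass. Bcl2a1b, a survival protein of the Bcl2 family used by blood cells, was 20.53, 79.76, 6.966, 0 and 203.9 in dSC and detected in 2 of 14 sSC cells (difference -4.63, SE 0.98, adjusted p = 0.19). Its copies share most of its sequence, 72.4% of 31-base stretches with Bcl2a1d and 56.7% with Bcl2a1a. Summed over the 3 copies, values ran from 26.34 to 206.4 in the 5 dSC cells, and the sum reached 1 in 3 of 14 sSC cells. The family sum was put together after these values were seen and has no test. CAAA01066123.1, a transcript model overlapping Rps6ka4, was low, from 2.196 to 4.344 in dSC and 0 in all 14 sSC cells (difference -1.98, adjusted p = 0.434).

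Clone means of the tissues did not overlap for 13 genes lower in sSC (0.086% of genes tested) and 1 gene higher (0.00662%). For untied values, 1 of the 1365 ways to split the clones into 11 and 4 separates them fully in a given direction. That is a share of 0.000733, so the 13 genes lie near it and the 1 gene below it. The 13 include Trim43c, Gm24119 and AV356131, and the other 10 did not pass the test. The differences of the 13 ran from -5.20 to -1.98. Ndufa9, a subunit of respiratory complex I, differed by -3.41, Asl, the urea cycle enzyme argininosuccinate lyase, by -4.43, and Alg5, an enzyme of protein glycosylation, by -3.06. The gene that was higher throughout, Scoc, which encodes a coiled-coil protein of the Golgi, differed by 0.83. These 14 were picked for the absence of overlap, so their size is a description.

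Of the genes higher in sSC, Ptgds had the smallest p and did not pass. Ptgds makes prostaglandin D2 and is abundant in meninges and oligodendrocytes. It was 158.2, 18.6, 206.3, 263.9 and 119 in the dSC cells of clones A, B, O (2 cells) and U, and between 202.3 and 16030 in the sSC cells, with a median of 1112. Of the 14 sSC cells, 11 exceeded the highest dSC cell, and the lowest 3 (clones F, K and N) fell within the dSC range. Clone means were 10.01 ± 1.76 (SD, n = 11) for sSC against 6.60 ± 1.59 (SD, n = 4) for dSC (difference 3.41, SE 0.98, limma adjusted p = 0.788). The difference was 3.33 without the clone B library and 3.85 in Fz10-CreER cells. The other cells had Ptgds medians of 308.1 in sSC and 499.5 in dSC. RNA of oligodendrocytes was present in the same cells: summed over 15 markers it ran from 1579 to 31220 in sSC class cells (median 4012) and from 3263 to 6528 in dSC class cells (median 4552). Of the 15 markers 13 had a higher mean in sSC (median difference 0.99), as did 6 of 8 tested vascular and meningeal genes (median 0.31), whose sums ran from 0 to 1460 in sSC (median 233.7) and from 0.7097 to 326.8 in dSC (median 147.8). The part of such RNA in the Ptgds difference was not tested.

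Gm534, a noncoding transcript, was next. It was detected in 9 of 14 sSC class cells, up to 212.7, and in 1 of 5 dSC class cells, at 1.692 in clone O. All 15 other sSC and dSC cells had it listed at 0. The difference was 4.59 (SE 1.35, limma adjusted p = 0.828), and the interaction with the other cells, also 4.59 (SE 1.43), did not pass. Gm534 overlaps Otx2os1 on the opposite strand. Otx2os1 was detected in 10 of 14 sSC and 4 of 5 dSC class cells (difference 1.71, SE 1.36), and Otx2, its protein-coding neighbour, differed by 1.92 (SE 1.48, adjusted p = 0.999). Gm44781 gave a like case: it is antisense to Lmo1, a LIM-domain protein, and differed by 4.94 (SE 1.78), while Lmo1 differed by 3.77 (SE 1.58), both with an adjusted p of 0.999. Prpf31, a splicing factor (3.43), the long noncoding Gm20754 (3.32) and Abhd14a, a hydrolase (3.72), completed the 6 of smallest p, and none passed.

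Neuropeptide precursors had differences in both directions, and none passed. Sst, the precursor of somatostatin, was found in all 19 class cells, from 23.26 to 6896. It was 23.26, 63.8, 945.2, 2107 and 262.2 in the dSC cells of clones A, B, O (2 cells) and U, and ran from 138.1 to 6896 in sSC with a median of 819.4. The highest sSC values were in clones S (6896 and 3776), B (3399) and T (2314 in 1 of its cells). The groups overlapped, with clone means of 9.66 ± 1.56 (SD, n = 11) for sSC against 7.28 ± 2.55 (SD, n = 4) for dSC, and the difference of 2.38 (SE 1.01) did not pass (limma adjusted p = 0.999). It was 2.17 without the clone B library and 3.71 in Fz10-CreER cells, where the dSC cells of clone O, which carry Sox2-CreER, are left out. The other cells had Sst at medians of 242.4 in sSC and 288.4 in dSC. The interaction of 4.42 (SE 2.16) did not pass.

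Pdyn, the dynorphin precursor, went the other way and also did not pass. It was 0, 9.295, 41.67, 0 and 29.18 in dSC and detected only in the 2 cells of clone T in sSC, at 59.03 and 5.662 (difference -2.35, SE 0.85). Npy, neuropeptide Y, was detected in 8 of 14 sSC and 3 of 5 dSC cells, up to 210.8 and 158.7. Its difference of -0.28 (SE 1.61) changed sign with single clones. Vip, another peptide transmitter, was detected in 5 sSC cells, up to 608.3 in clone Q, and listed at 0 in all 5 dSC cells (difference 2.19). Of 12 tested peptide precursors, 6 were higher and 6 lower, with a median of 0.01 beside -0.38 for all genes.

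Calcium-binding proteins mark inhibitory subtypes in many brain regions. For Pvalb, Calb1 and Calb2 the SD between clones of either tissue exceeded the difference between the tissues. Pvalb, parvalbumin, was 311.5, 0, 2134, 20.72 and 652.9 in dSC and ran from 0 to 2018 in sSC (median 441.6), with a difference of 1.41 (SE 1.58, adjusted p = 0.999). Without dSC clone B its sign turned (-0.71). Calb2, calretinin, was detected in 18 of 19 class cells, from 18.9 to 1342 in dSC and up to 986.1 in sSC (difference -0.63, SE 1.36). Calb1, calbindin, reached 564.3 in sSC and 155.6 in dSC (difference 0.45, SE 1.48). S100a10, a small annexin partner, was the one member with an unadjusted p under 0.05. It was detected in 11 of 14 sSC cells, up to 342.7, and in dSC only in clone A, at 38.44 (difference 3.36, SE 1.53, adjusted p = 0.999). In the other cells it was detected in 5 of 8 in sSC and 6 of 7 in dSC, and the interaction of 5.90 (SE 2.23) did not pass. Of 15 members tested, 10 had a higher mean in sSC (median 0.34) and none passed.

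**Figure D3:**
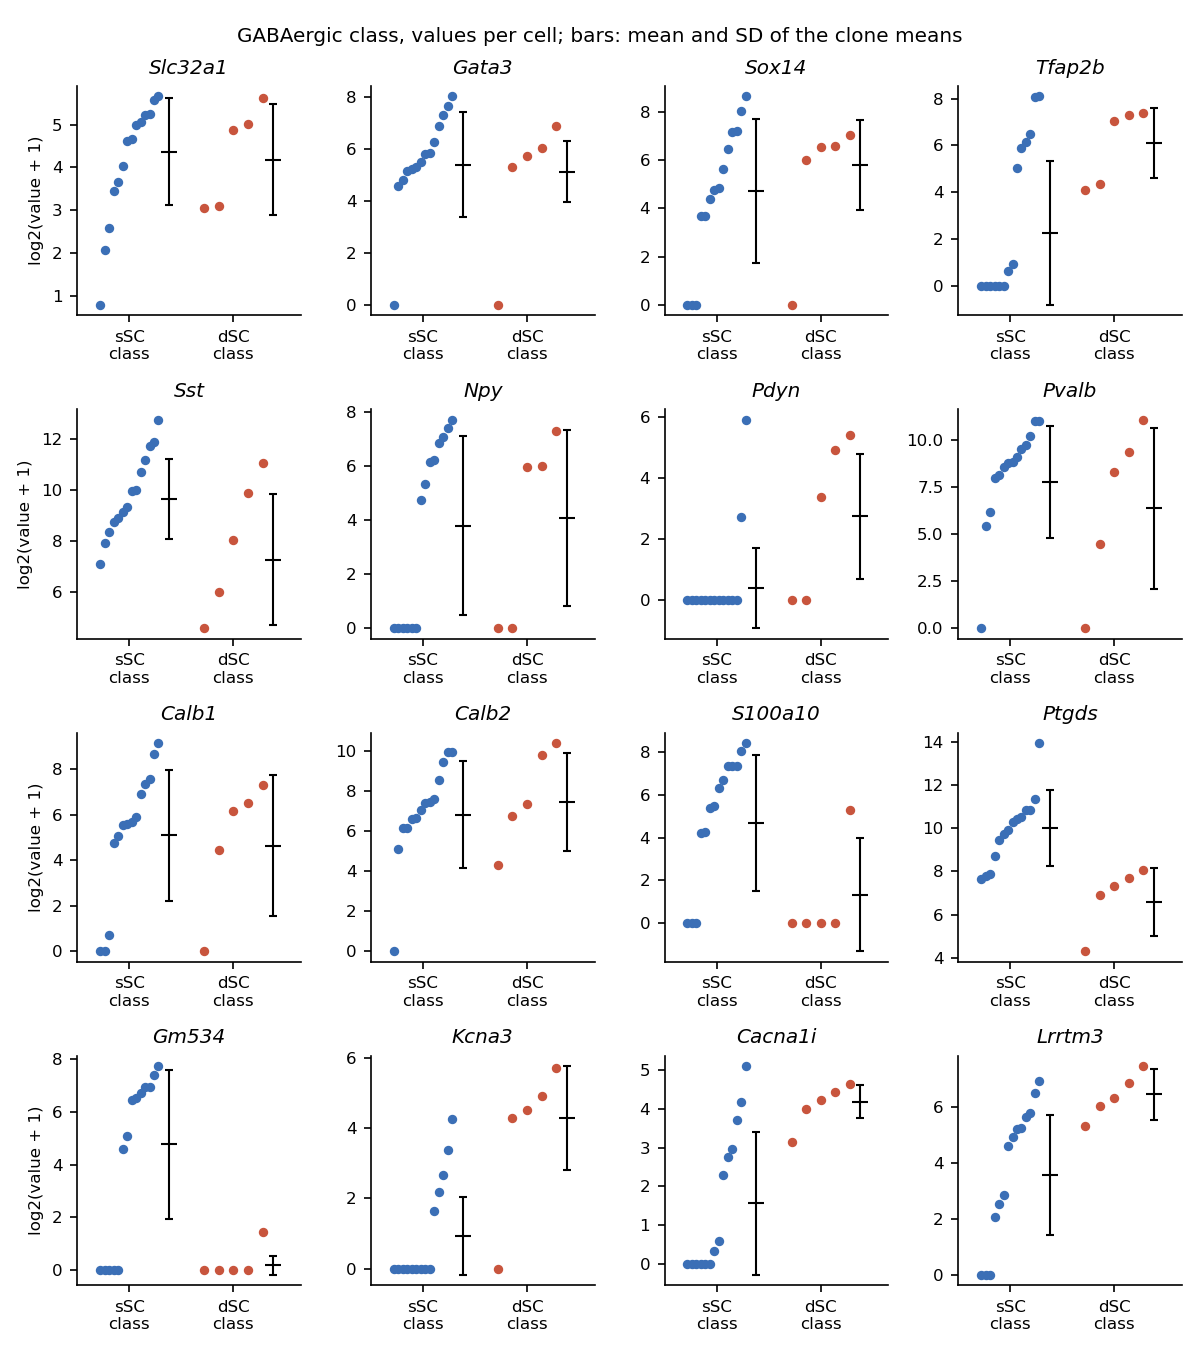
Values of 16 genes per class cell (y axis, log2(value + 1)) in sSC (blue) and dSC (red), with the mean and SD of the clone means as bars. Sst is above 0 in all 19 cells, and Ptgds spans 202.3 to 16030 in sSC against 18.6 to 263.9 in dSC.

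No receptor or channel gene of the lists passed. Over all genes tested 65.0% had a lower mean in sSC, with a median of -0.38, and the counts of the lists are set beside that share. Of 20 genes of GABA and glycine receptors and the inhibitory synapse, 5 had a higher and 15 a lower mean in sSC, with a median of -0.78. Gabrb2, a beta subunit of the GABA-A receptor, was 38.73, 74.71, 12.38, 17.37 and 72.3 in the dSC cells of clones A, B, O (2 cells) and U. In sSC it was detected in 10 of 14 cells, up to 69.65 with a median of 8.189, and the groups overlapped (difference -2.49, SE 1.22, limma adjusted p = 0.999). Gabra5, an alpha subunit, differed by -2.42 (SE 1.42). Gabbr1 of the GABA-B receptor (0.02) and the postsynaptic scaffold gene Gphn (0.23) were near 0. The median moved to -0.22 after quantile normalization, when that of all genes moved from -0.38 to 0.02, and 11 of 20 members then had a lower mean. That scaling left 7460 of all 15113 genes with a lower mean, and the quantile counts of the lists below are to be read against it.

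Kcna3, a Shaker-type potassium channel, had the smallest p of the channel lists. It was 18.61, 51.39, 0, 21.93 and 29.52 in dSC and detected in 5 of 14 sSC cells, up to 18.38 (difference -3.36, SE 0.94, limma adjusted p = 0.786). Most sSC cells lay at 0, and the dSC value of 0 was in a cell of clone O. Cacna1i, a T-type calcium channel, was in all 5 dSC cells, at 20.5, 14.86, 17.72, 7.839 and 23.67, and in 6 of 14 sSC cells, up to 33.15 (difference -2.62, SE 1.08). Of 23 tested potassium channel genes 14 had a lower mean (60.9%, median -0.46), and of 24 sodium, calcium and HCN channel genes 18 did (75.0%, median -0.24), beside 65.0% of all genes. After quantile normalization these became 10 of 23 and 10 of 24, beside 7460 of 15113 over all genes. The direction of both lists thus changed with the scaling.

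Lrrtm3, a postsynaptic adhesion protein that binds neurexins, was 38.74, 175.8, 64.93, 80.18 and 114.5 in dSC and ran from 0 to 122.4 in sSC with a median of 26.66 (difference -2.89, SE 1.18, limma adjusted p = 0.999). Of 17 tested genes of synaptic adhesion 14 had a lower mean in sSC (82.4%, median -0.60, beside 65.0% and -0.38 over all genes), and 11 of 17 after quantile normalization (median -0.26). Of 16 genes of the release machinery 13 had a lower mean (81.2%, median -0.44), with Snap25 at -0.18 and Vamp2 at 0.15. Of 22 tested glutamate receptor genes 14 had a lower mean (63.6%, median -0.39), close to the share and median over all genes. Of 20 immediate early genes, induced by activity, 9 had a higher and 11 a lower mean (median -0.20). Ier3 was the one with an unadjusted p under 0.05, at 6.59, 0, 113.2, 425.2 and 192 in dSC and detected in 4 of 14 sSC cells (difference -3.22, SE 1.32), and Fos differed by 1.61. Of 13 collicular layer genes 8 had a higher mean (median 0.13), with Rorb at 1.09 and Cbln4 at -1.56. None of these lists had a member that passed, nor did those that follow. Of 8 tested midbrain regional factors 6 had a higher mean (median 0.33), led by Meis2, a homeobox factor, at 2.84. Of 20 monoamine and acetylcholine receptor genes 11 had a higher mean (median 0.21), and of 9 markers of other transmitters 5 did (median 0.19). Of 15 Eph receptors and ephrins, which guide axons in the colliculus, 9 had a lower mean (median -0.15). A lower mean was also found for 5 of 7 glutamatergic midbrain factors (median -0.10) and 7 of 9 heat shock chaperones (median -0.21). Of 9 forebrain factors only Dlx5 was tested, at 1.33.

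Microglia markers were the list farthest below all genes. All 16 tested members had lower means in sSC, with a median of -1.37 beside -0.38 over all genes. Over all genes tested, 65.0% had a negative difference. Lst1, a gene of leukocytes, was 155.3, 198.5, 150.8, 0 and 239 in dSC and detected in 5 of 14 sSC cells, up to 307.8 (difference -4.94, SE 1.29, limma adjusted p = 0.685). Thus 9 sSC cells and 1 cell of clone O lay at 0, and the positive cells of the tissues overlapped. Ctss, a lysosomal protease, was present in all 5 dSC cells and in 13 of 14 sSC cells (difference -3.58, SE 1.52), and Ptprc, the leukocyte antigen CD45, in 4 of 5 and 4 of 14 (difference -2.77, SE 0.88). The complement genes C1qa, C1qb and C1qc differed less, from -0.47 to -0.09. The sSC clone B library, with 2661 detected genes, held the highest class value of each, at 1194, 3464 and 1750. Sums over the list did not separate the tissues. Over 17 markers the summed value ran from 418 to 8501 in sSC class cells (median 2875) and from 1124 to 4373 in dSC class cells (median 3370), and no marker was at 0 in all cells of either group. The number of markers at 1 or more was 7 to 16 in sSC and 14 to 17 in dSC. Without the clone B library 16 of 16 members were lower (median -1.41), and after quantile normalization 15 of 16 (median -1.24). Whether RNA of other cells enters the differences in Lst1, Bcl2a1b and Ctss was not tested.

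**Figure D4:**
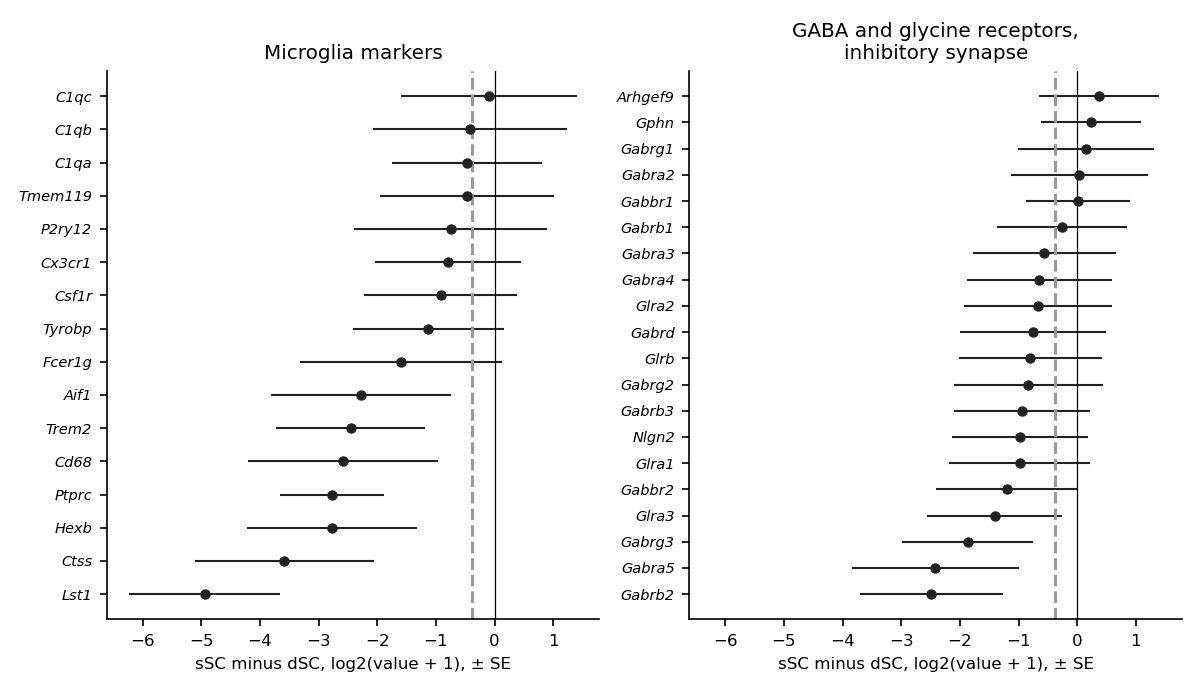
Difference between sSC and dSC class cells (x axis, log2(value + 1), with SE) for the 16 tested microglia markers and the 20 genes of inhibitory receptors and synapses. The solid line marks 0 and the dashed line the median of all genes tested, -0.38. All 16 microglia markers lie left of 0, and 5 of 20 receptor and synapse genes lie right of it.

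Markers of the other cell types had mostly positive differences. Of 15 oligodendrocyte markers 13 had a higher mean in sSC (median 0.99), and the 2 with a lower mean were the myelin genes Mbp and Mobp (-0.93 and -1.08). Of 12 astrocyte markers 10 had a higher mean (median 0.36), with Slc4a4, a bicarbonate transporter, at 2.36 (SE 1.06). All 4 tested red blood cell genes had a higher mean (median 1.23), with sums from 0 to 9623 in sSC and 7.114 to 900.1 in dSC. Of 8 tested vascular and meningeal genes 6 had a higher mean (median 0.31). Rgs5, Igf2 and Ly6c1 were at 0 in all dSC class cells, and Ly6c1 in all sSC class cells too. Of 10 general neuron markers 9 had a lower mean (median -0.30), and in 6 of 10 after quantile normalization. Summed over the 10, they ran from 2034 to 8640 in sSC and 5287 to 11210 in dSC. No member of these lists passed.

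**Figure D5:**
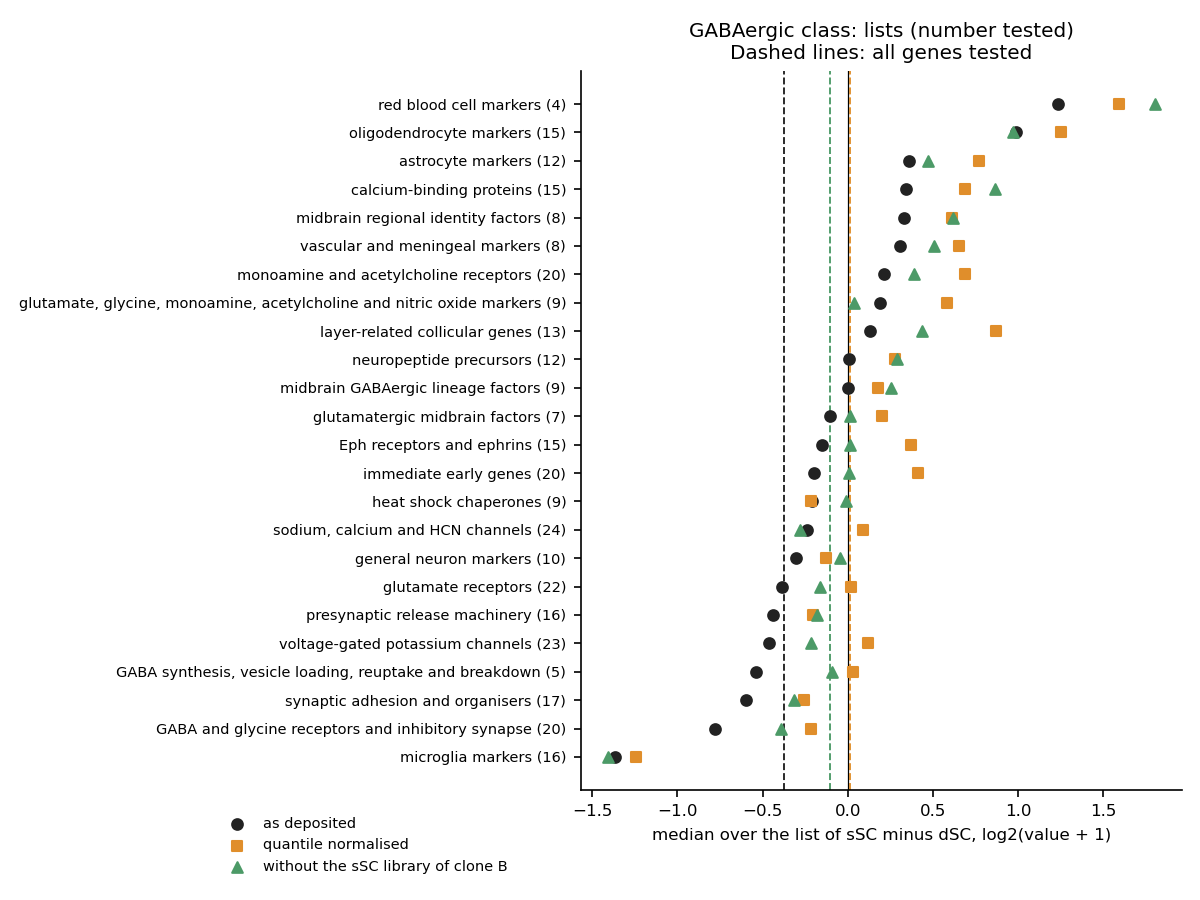
Median difference between sSC and dSC class cells (x axis, log2(value + 1)) for each list with at least 3 tested members, as deposited, after quantile normalization and without the sSC library of clone B. Dashed lines give the median of all genes tested, and as deposited the medians range from -1.37 for microglia markers to 1.23 for red blood cell markers.

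The median of all genes depended on scaling and on 1 library, so the side of 0 on which a list falls has to be read against it. It was -0.38 as deposited, 0.02 both after quantile scaling and with the number of detected genes in the model, and -0.10 without the clone B library in sSC. Besides the channel lists, medians below 0 moved above it after quantile normalization for GABA synthesis and reuptake (0.03), glutamate receptors (0.02), immediate early genes (0.41), Eph receptors and ephrins (0.37) and glutamatergic factors (0.20). That of the lineage factors moved to 0.18. As a description of the whole profile, clone means over the 2000 most variable genes correlated at a median r of 0.261 among the 55 sSC pairs, 0.319 among the 6 dSC pairs and 0.277 among the 44 pairs across tissues. The pairs share libraries, so the values carry no test.

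The last question was whether the tissue difference of GABAergic cells differs from that of the other cells, which here are the 8 sSC and 7 dSC cells with D at or below 1. No gene passed the interaction test (0 of 14613, 0%). In limma 425 of the 14613 genes had an unadjusted p under 0.05, a share below the 0.05 expected if no gene differed. The smallest adjusted p was 0.334. Trim43c and Gm24119 did not pass the filter of that test. After AV356131, Ghr, the growth hormone receptor, had the next smallest adjusted p. Ghr was detected in 11 of 14 class cells of sSC and 3 of 5 of dSC, but in 1 of 8 sSC and 7 of 7 dSC cells of the others, an interaction of 5.94 (limma adjusted p = 0.681). Tmem186, a mitochondrial membrane protein, had the same pattern, in 10 of 14 and 1 of 5 class cells and in 3 of 8 and 5 of 7 others. Lysmd1 and Gmppb, which makes GDP-mannose for glycosylation, showed the reverse. Both were found in all 5 dSC class cells and in 7 of 14 sSC class cells, and in the others Lysmd1 was in 5 of 8 cells of sSC and 1 of 7 of dSC, and Gmppb in 6 of 8 and 2 of 7. Mad2l1, a spindle checkpoint protein (-3.89), Enox2 (-4.45) and Lsm10 (-6.18) also had negative interactions. Eif1-ps1 (4.37), Rpl28-ps1 (3.79), Flrt2, an adhesion protein (5.58), and Psmc3ip (6.19) had positive ones. None of these passed.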

How the data were processed

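The measurements are 36 single-neuron RNA libraries, made from polyA RNA by SMART-Seq Single Cell PLUS as the labels' protocols state. The table deposited by the authors holds an expression signal for 55359 genes and 36 cells, which they named TPM of exon plus intron. Each cell sums to 2000000, and so the unit was taken to be a signal and not the plain TPM that the plan had assumed. The submitters' processing notes name STAR 2.7.9a, R 4.0.3 and the build GRCm39. How reads were counted, with which annotation, strand use and formula, is not given in the sources used here. Depth per library is unknown, no counting interval can be given, and a value of 0 can be a failed capture. Symbols (52083 genes), gene types, overlaps and transcript sequences came from GENCODE M21, matched by gene identifier. That annotation is of an older build, so no positions are printed.

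Values were taken as log2(value + 1) and averaged over the cells of a clone and tissue. Genes detected (a value of 1 or more) in 25% or more of class cells entered limma 3.58.1, run under R 4.3.3 with the trend and robust options of eBayes, and p-values were adjusted by Benjamini-Hochberg over all genes tested at a threshold of 0.05. Differences are sSC minus dSC on that scale, which understates low genes. Gad1, Gad2 and Slc17a6 chose the cells and were given no test. The interaction fit used clone means of class and other cells in both tissues. Genes detected were compared by a two-sided exact permutation test. For 11 against 4 clones the smallest possible permutation p in 1 direction is 0.000733, and that of the two-sided test is larger. Named genes follow a rule: up to 10 per direction past the threshold, otherwise the 6 per direction with the smallest p, up to 3 members per list with an unadjusted p under 0.05, and a fixed set of transmitter, peptide and lineage genes. Other members, family sums and overlapping genes were named after their values were seen. The members, the rule and the 25 gene lists were chosen with earlier results of these data known. Some genes are not reported here and were taken out of the lists and the fixed set, but stayed in the fits. Alternatives changed the pseudocount (0.1 and 10), the filter, the scaling, the model, the class rule and the cells or clones used. The limma fit was tested on simulated normal values with the same spread in both tissues. The 4 called genes are mostly listed at 0 in sSC with unequal spread, so that simulation cannot speak for them. Python 3.11.15 with numpy 2.4.6, pandas 2.3.3, scipy 1.17.1 and matplotlib 3.10.9 was used for the rest.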

Additional observations from a re-analysis of the deposited data

Results flagged for a closer look

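Among the 4 dSC clone means of the named genes, 7 values stood far from the other 3, among 32 groups of values examined (31 genes and the number of genes detected). Chance flags about 1 in 20 groups of untied, normally distributed values. The values here hold many zeros, and many of the genes were named for a small p. The 7 flags therefore cannot be set against that rate. For Gm534, Abhd14a and S100a10 the other 3 clones were all at 0, where any detection in the fourth is flagged, and that rate does not apply. Clone O, the only Sox2-CreER clone in dSC and the mean of 2 cells, was low for Gm24119 (2.695), Lst1 (3.623) and Sox14 (2.996), each time with 1 of its cells listed at 0. Clone O was high for Gm534 (0.7143) and Abhd14a (3.256), which were listed at 0 in the rest. Clone A was high for S100a10 (5.301), listed at 0 in the rest. Clone B was low for Calb1 (0.0). All values are log2(value + 1).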

How the results depend on the processing

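The count of 4 genes, all lower in sSC, was 2 at a pseudocount of 10, 1 without a filter, 0 at a filter of 50%, 2 after quantile normalization, 0 in Fz10-CreER cells only, 2 with D above 2 and 1 with Slc32a1 added to D. Leaving out 1 clone at a time gave 0 to 3. No paired analysis was possible because only clone B had class cells in both tissues: neither the fixed nor the random clone block could be fitted, and both were not run. For the interaction, the replicate block by clone was fitted and called 0 genes, with 1151 at an unadjusted p under 0.05 (smallest limma adjusted p = 0.618). No alternative that was run called an interaction or moved genes detected past its threshold. Of the named genes' values, 816 kept their direction and side of the threshold, 29 lost a call, 1 gained one (Bcl2a1b) and 18 changed sign. Those 18 belong to 6 genes of the fixed set, none of them called. Leaving out 1 clone at a time moved Slc32a1 between -0.18 and 0.67, Npy between -1.64 and 0.80, Pvalb between -0.71 and 2.41, Calb1 between -1.09 and 1.08, Calb2 between -1.66 and 0.16, and Gata3 between -0.29 and 0.81. Npy was 0.10 without cells under 5000 genes. Calb1 was -0.11 in Fz10-CreER cells, and Gata3 was -0.62 there, -0.60 with D above 2 and -0.57 with Slc32a1 in D. The cause was not tested. With 4 dSC clones and unknown depth, a 0 cannot be told apart from a failed capture.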

Other observations

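The cell of clone D from PAG, read as the periaqueductal grey, met the same rule (D = 4.19) and entered no comparison. It had Gad1 at 964.3, Gad2 at 1035, Slc17a6 at 53.74 and Slc32a1 at 72.24. Sst was 7033, above every class cell of either colliculus tissue, and Gata3 (91.23), Sox14 (99.79), Tfap2b (182.1) and Pvalb (1105) were present. Of the genes called between sSC and dSC, Trim43c and A130006I12Rik were listed at 0, Gm24119 was 6.544 and AV356131 57.96. Lst1 was listed at 0 and Ptgds was 5.858, below every class cell of sSC and dSC.

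In sSC, clones K, S and T had 2 class cells each, and clone O had 2 in dSC. Some genes had very different values in the cells of 1 clone. Gata3 was 0 and 116.4 in the cells of clone O, which also had Pvalb at 2134 and 20.72 and Calb2 at 1342 and 163.3. Gm534 was 0 and 169.5 in the cells of clone T, and A130006I12Rik was listed at 0 in 1 cell of S and of T and at 4028 and 3933 in the other.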
